A study of Homo sapiens with 10 samples.

Results

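The genes described here are 10 core genes of the TGF-beta pathway in U2OS cells, covering ligands (TGFB1, TGFB2), receptors (TGFBR1, TGFBR2, TGFBR3), signal-carrying SMADs (SMAD2, SMAD3, SMAD4) and inhibitors (SMAD7, SKIL). They were chosen by name, after the Ensembl identifier of each gene in the count tables, without its version, had been joined to its GENCODE symbol. Earlier results of these data were known when they were chosen. All 10 had an entry among the 63299 genes of the tables and all 10 were among the 16143 genes with enough reads to be tested. U2OS is a human osteosarcoma cell line. The cells were transfected with a control siRNA or with siRNA against DDX41, a DEAD-box RNA helicase, and harvested after 48 h, and the comparison asks which transcripts differ in level once DDX41 is depleted. The 5 control knockdown and 5 DDX41 knockdown libraries were made from polyadenylated RNA with a strand-preserving kit, and single reads were sequenced. Between 21807041 and 24896398 reads were counted to genes per library.

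TGF-beta is secreted as a latent complex and, once released, binds TGFBR2, which recruits and phosphorylates TGFBR1, while TGFBR3 (betaglycan) presents the ligand at the cell surface. TGFBR1 then phosphorylates SMAD2 and SMAD3, which join SMAD4, move to the nucleus and act on target genes together with other transcription factors. SMAD7 acts against the activated receptors, SKIL (SnoN) represses transcription through the SMADs, and both genes are themselves transcribed in response to the signal. In mesenchymal and bone-derived cells the pathway is known for its effects on extracellular matrix, growth and differentiation.

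Levels are given in CPM, which are read counts per 1000000 reads of library size after TMM scaling. DDX41 (ENSG00000183258.11, chr5:177511577-177516961 on the minus strand of GRCh38) was examined first, as a check of the labels. In replicates 1 to 5 of the control knockdown, DDX41 stood at 49.1, 49.4, 47.35, 47.15 and 50.5 CPM. The corresponding DDX41 knockdown libraries held 11.45, 13.7, 12.4, 11.2 and 12.35 CPM. Each library labelled as a DDX41 knockdown was below each control library. The mean went from 48.7 ± 1.43 to 12.2 ± 1.00 CPM (SD, n = 5), or a change of -1.99 on the log2 scale (adjusted p = 4.47e-24 in edgeR after Benjamini-Hochberg adjustment, standard error 0.05).

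The cell line was set against markers of its own and of other cell types. Of 6 mesenchymal and osteosarcoma markers, 5 were above 1 CPM in every library, and their summed level was 5641 to 5738 CPM in control and 5827 to 6111 CPM in DDX41 knockdown libraries. SPARC, a matrix protein abundant in bone, was the most abundant of them at 2807 ± 32.8 and 3181 ± 96.5 CPM, whereas the transcription factor TWIST1 was at or near 0. SPARC and CD44 (158 ± 4.88 and 204.5 ± 9.14 CPM) rose, and VIM (2465 ± 51.0 and 2321 ± 37.8 CPM), CDH2 (225 ± 7.29 and 207 ± 9.44 CPM) and RUNX2 (32.4 ± 1.25 and 24.6 ± 0.827 CPM) fell. Of 5 haematopoietic markers none reached 1 CPM, the sum stayed between 0.286 and 0.766 CPM with PTPRC in the lead, and CD3E had no counts. The summed level of 5 epithelial markers was lower after DDX41 knockdown, at 23.3 to 27.7 CPM against 57.6 to 64.2 CPM, with CLDN4 the most abundant. Within that list CLDN4 fell from 29.2 ± 2.30 to 13.3 ± 0.908 CPM, and the basal keratins KRT14, from 17.2 ± 1.04 to 1.78 ± 0.613 CPM, and KRT5, from 5.24 ± 0.290 to 0.488 ± 0.121 CPM, fell as well, while EPCAM (7.99 and 8.31 CPM) and CDH1 (0.874 and 0.928 CPM) were not called. The sum of 4 endothelial markers was 4.86 to 6.01 CPM in control and 1.66 to 2.94 CPM in DDX41 knockdown libraries, with VWF in the lead. Mitochondrial genes held 1.14% to 1.69% of the counts of a control library and 2.00% to 2.29% of those of a DDX41 knockdown library. The part of these differences in the results was not tested. In bulk libraries such as these, fewer cells of a type and less RNA per cell cannot be told apart.

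After DDX41 knockdown 5 of the 10 genes rose and 3 fell at an adjusted p-value under 0.01, with 30.3% of all tested genes called higher and 32.1% called lower at the same threshold. With an absolute log2 fold change over 0.5 required as well, 4 of the 10 remained, against 25.5% of all tested genes. The genes that rose were TGFBR2, TGFBR3, SMAD3, SMAD7 and SKIL. Those that fell were TGFB1, TGFBR1 and SMAD4, and the genes not called were TGFB2 and SMAD2. The median log2 fold change was 0.14 over the 10 genes and -0.0014 over all tested genes. Receptors and SMADs thus each held genes called in opposite directions. Where the libraries of a gene are said not to overlap between groups, an exact permutation test (two-sided, of log2 CPM) gave p = 0.00794, which is the lowest value possible with groups of 5. The replicates are those of the labels, so that p-values measure the spread between these libraries, which may be technical.

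**Figure D1:**
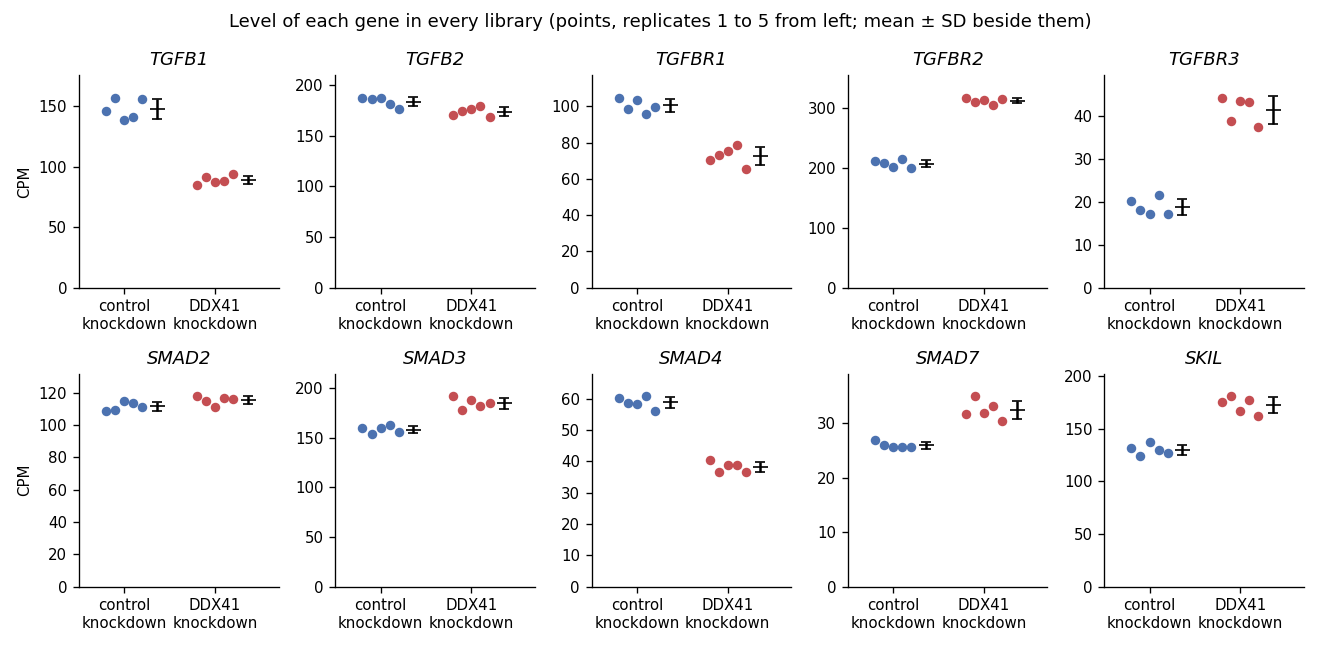
Level of each of the 10 genes in every library, in CPM, with 1 point per library (blue, control knockdown; red, DDX41 knockdown) and the mean ± SD beside the points. TGFBR3 lies between 17.3 and 21.6 CPM in control and between 37.4 and 44.35 CPM in DDX41 knockdown libraries, whereas the points of SMAD2 and of TGFB2 overlap between groups.

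TGFB1 encodes the best-studied ligand of the family. The gene (ENSG00000105329.9) lies at chr19:41301587-41353922 on the minus strand. Control libraries 1 to 5 held 146, 157, 138, 141 and 156 CPM of TGFB1. Its level in the DDX41 knockdown libraries was 85.1, 91.1, 87.7, 88.0 and 93.5 CPM. The groups were far apart, and replicates 2 and 5 were the highest libraries in both. TGFB1 fell from 148 ± 8.58 to 89.1 ± 3.29 CPM (SD, n = 5), by 0.73 on the log2 scale (standard error 0.04, adjusted p = 2e-16, edgeR with Benjamini-Hochberg adjustment), and 10.4% of tested genes had a lower log2 fold change. Its exons share 215 bases, 6.59% of their length, with HNRNPUL1 on the opposite strand, a gene with 354% of the counts of TGFB1 over the 10 libraries. HNRNPUL1, which encodes an RNA-binding nuclear protein, itself fell from 471 ± 6.13 to 367 ± 12.0 CPM (log2 fold change -0.36, adjusted p = 4.72e-13 with edgeR and Benjamini-Hochberg adjustment). The strand setting of the counting is not given in the sources used here, and the reads of the shared bases cannot be assigned to one of the genes.

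TGFB2 encodes another ligand of the same receptors, one that depends more on TGFBR3 for binding. It lies at chr1:218345336-218444619 on the plus strand (ENSG00000092969.11). TGFB2 was measured at 187, 186, 187, 181 and 176 CPM in control libraries 1 to 5. After DDX41 knockdown the values were 169.8, 174.5, 176, 179 and 168 CPM. The groups overlapped, since replicate 4 of the DDX41 knockdown was above replicate 5 of the control. Means were 184 ± 4.89 and 174 ± 4.49 CPM (SD, n = 5), with a log2 fold change of -0.08 (standard error 0.03) that was not called (adjusted p = 0.0121, edgeR with Benjamini-Hochberg adjustment). TGFB2 passed the threshold with total counts in place of TMM factors (-0.09, adjusted p = 0.00386), with only genes of at least 1 CPM tested (-0.08, adjusted p = 0.00943), without control replicate 5 (-0.10, adjusted p = 0.00583) and without DDX41 knockdown replicate 4 (-0.09, adjusted p = 0.00683), within a range of -0.10 to -0.06 over all alternatives. An antisense gene, TGFB2-AS1, shares 701 bases with TGFB2 and had 0.395% of its counts. It was at 0.864 and 0.539 CPM and was not called (log2 fold change -0.67, adjusted p = 0.0183 with edgeR). In edgeR, TGFB2-AS1 was called without control replicate 1 (-0.79, adjusted p = 0.00693) or 4 (-0.78, adjusted p = 0.00874). The same held without DDX41 knockdown replicate 2 (-0.84, adjusted p = 0.00751), and its range over the alternatives was -0.84 to -0.49.

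Among the receptors, TGFBR1 is the type I kinase that phosphorylates the SMADs. It lies at chr9:99104038-99154192 on the plus strand (ENSG00000106799.12). Control libraries 1 to 5 gave 105, 98.5, 104, 96.0 and 99.6 CPM for TGFBR1. In DDX41 knockdown cells the same gene was at 70.5, 73.5, 75.5, 78.6 and 65.5 CPM. The highest DDX41 knockdown library, replicate 4, was still below the lowest control library. TGFBR1 fell from 101 ± 3.73 to 72.7 ± 5.00 CPM (SD, n = 5), by 0.47 on the log2 scale (standard error 0.04, adjusted p = 2.64e-11, edgeR with Benjamini-Hochberg adjustment).

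TGFBR2, the type II kinase that binds the ligand first, moved in the other direction. Its position is chr3:30606601-30694142 on the plus strand (ENSG00000163513.17). Levels of TGFBR2 were 212, 209.5, 202, 215 and 199.7 CPM in control libraries 1 to 5. They were 318, 311, 314, 306 and 316 CPM after DDX41 knockdown. The groups did not overlap, and the DDX41 knockdown libraries were close together. TGFBR2 rose from 208 ± 6.41 to 313 ± 4.53 CPM (SD, n = 5), or 0.59 on the log2 scale (standard error 0.03, adjusted p = 6.79e-18, edgeR with Benjamini-Hochberg adjustment), and 7.93% of tested genes had a higher log2 fold change.

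TGFBR3 encodes betaglycan, the co-receptor without kinase activity. It lies at chr1:91680343-91906335 on the minus strand (ENSG00000069702.10). Control libraries 1 to 5 showed TGFBR3 at 20.2, 18.2, 17.3, 21.6 and 17.3 CPM. The DDX41 knockdown libraries had 44.35, 38.8, 43.6, 43.2 and 37.4 CPM. Every DDX41 knockdown library was above every control library, with replicates 2 and 5 the lower ones of the raised group. Its mean rose 2.19-fold, from 18.9 ± 1.90 to 41.5 ± 3.15 CPM (SD, n = 5). The increase of 1.13 on the log2 scale (standard error 0.06, adjusted p = 1.6e-13, edgeR with Benjamini-Hochberg adjustment) was the largest among the 10 genes, and 1.86% of tested genes had a higher one.

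SMAD2 and SMAD3 are the SMADs that the activated type I receptor phosphorylates. SMAD2 lies at chr18:47808957-47931146 on the minus strand (ENSG00000175387.15). It was found at 109, 109, 115, 114 and 111 CPM in control libraries 1 to 5. The DDX41 knockdown libraries gave 118, 115, 111, 117 and 116 CPM for SMAD2. The groups overlapped, with replicate 3 of the DDX41 knockdown inside the control range. Means of 112 ± 2.72 and 115.5 ± 2.52 CPM (SD, n = 5) corresponded to a log2 fold change of 0.05 (standard error 0.03) that was not called (adjusted p = 0.131, edgeR with Benjamini-Hochberg adjustment).

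SMAD3, which unlike the main form of SMAD2 binds DNA directly, lies at chr15:67063763-67195173 on the plus strand (ENSG00000166949.15). Its level was 159, 154, 159.6, 162 and 156 CPM in control libraries 1 to 5. After DDX41 knockdown SMAD3 reached 191.5, 177, 188, 182 and 184.5 CPM. All DDX41 knockdown libraries were above all control libraries. SMAD3 rose from 158 ± 3.43 to 185 ± 5.41 CPM (SD, n = 5), or 0.22 on the log2 scale (standard error 0.03, adjusted p = 3.4e-08, edgeR with Benjamini-Hochberg adjustment). A long non-coding RNA on the opposite strand (ENSG00000259347) shares 182 of its exon bases and had 0.276% of its counts, with a log2 fold change of 0.56 that was not called (adjusted p = 0.0843).

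SMAD4 is the common partner of both. It lies at chr18:51028528-51085045 on the plus strand (ENSG00000141646.13). SMAD4 stood at 60.3, 58.6, 58.5, 60.8 and 56.1 CPM in control libraries 1 to 5. It stood at 40.4, 36.7, 39.0, 38.9 and 36.5 CPM in the DDX41 knockdown libraries. The groups were separated by a gap wider than the range of either. SMAD4 fell from 58.9 ± 1.85 to 38.3 ± 1.66 CPM (SD, n = 5), by 0.62 on the log2 scale (standard error 0.04, adjusted p = 7.03e-15, edgeR with Benjamini-Hochberg adjustment). The phosphorylated SMADs and their common partner thus differed in what was observed, with SMAD3 higher, SMAD4 lower and SMAD2 not called.

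SMAD7 and SKIL are feedback inhibitors whose transcription is known to follow SMAD activity, so promoters were searched for SMAD-binding motifs, and that of SMAD7 is shown here beside that of TGFB1, a gene that fell. Sequences were taken from RefSeq on GRCh38.p14, in which all 10 genes had a promoter, and windows ran from 250 bases before to 50 bases after the start of the MANE Select transcript. The 250 bases before the start are printed from 5′ to 3′ on the strand of the gene. They come from chr18:48950966-48951215 (minus strand) and chr19:41353923-41354172 (minus strand). Capitals mark GTCTG or, for the other strand, CAGAC.
SMAD7: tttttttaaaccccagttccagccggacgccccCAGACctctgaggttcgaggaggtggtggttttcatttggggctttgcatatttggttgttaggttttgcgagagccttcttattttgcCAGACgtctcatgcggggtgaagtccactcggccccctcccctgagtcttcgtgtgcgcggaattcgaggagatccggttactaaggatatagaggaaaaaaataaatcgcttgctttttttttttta
TGFB1: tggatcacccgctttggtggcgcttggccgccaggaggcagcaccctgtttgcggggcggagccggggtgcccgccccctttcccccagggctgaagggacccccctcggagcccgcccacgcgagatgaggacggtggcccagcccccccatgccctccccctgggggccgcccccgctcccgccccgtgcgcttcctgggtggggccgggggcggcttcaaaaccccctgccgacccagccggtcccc
The short motif begins 217 and 128 bases before the start of SMAD7 and has no match in the TGFB1 window. For SKIL it begins 107 bases before the start, and there the window lies inside an exon of another SKIL transcript. The windows of TGFBR1, TGFBR3, SMAD2, SMAD3 and SMAD4 also lie within the annotated span of their gene. Windows of 5 of the 10 genes held the short motif (SMAD7, SKIL, TGFB2, TGFBR1 and SMAD3). Of the 35116 promoters of the same length, 45.3% held it. The palindrome GTCTAGAC, which is the same on both strands and does not contain the short motif, was found in 0 of the 10 windows and in 0.202% of all promoters. Of the 5 genes with the short motif, SMAD3, SMAD7 and SKIL rose, TGFBR1 fell and TGFB2 was not called. Of the 5 without it, TGFBR2 and TGFBR3 rose, TGFB1 and SMAD4 fell and SMAD2 was not called. A match describes the letters of a window and does not show binding.

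SMAD7 lies at chr18:48919853-48950965 on the minus strand (ENSG00000101665.8). Control libraries 1 to 5 held 27.0, 25.9, 25.7, 25.6 and 25.5 CPM of SMAD7. Its values after DDX41 knockdown were 31.7, 34.9, 31.8, 33.1 and 30.5 CPM. The control libraries were close together except for replicate 1, and all were below the DDX41 knockdown libraries. SMAD7 rose from 25.95 ± 0.605 to 32.4 ± 1.68 CPM (SD, n = 5), or 0.32 on the log2 scale (standard error 0.04, adjusted p = 1.63e-07, edgeR with Benjamini-Hochberg adjustment).

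SKIL lies at chr3:170357342-170396835 on the plus strand (ENSG00000136603.13). It was at 132, 124, 137, 129.7 and 127 CPM in control libraries 1 to 5. The DDX41 knockdown libraries had 175, 181, 167, 178 and 162 CPM of SKIL. No DDX41 knockdown library reached down to the control range. SKIL rose from 130.0 ± 4.91 to 172.5 ± 7.80 CPM (SD, n = 5), or 0.41 on the log2 scale (standard error 0.03, adjusted p = 3.46e-12, edgeR with Benjamini-Hochberg adjustment).

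To compare genes with each other, CPM was divided by the length of all annotated exons in kilobases. On that scale TGFB1 had the highest level of the 10 genes in control knockdown cells, at 45.2 ± 2.63 CPM per kilobase (SD, n = 5). TGFB2 and TGFBR2 followed at 30.3 each and could not be separated, and SKIL (16.0) and SMAD3 (15.8) were likewise not apart. TGFBR1 was at 12.6, SMAD7 at 6.58, SMAD2 at 3.06, SMAD4 at 3.00 and TGFBR3 at 2.20 CPM per kilobase, with SMAD2 and SMAD4 not apart. In DDX41 knockdown cells the order began with TGFBR2, at 45.7 ± 0.662 CPM per kilobase (SD, n = 5). TGFB2 (28.7) and TGFB1 (27.3) came next and overlapped, followed by SKIL at 21.25 and SMAD3 at 18.45. TGFBR1 (9.10) and SMAD7 (8.22) now overlapped, TGFBR3 (4.83) was above SMAD2 (3.17), and SMAD4 was lowest at 1.955 CPM per kilobase. The order depends on the length used, since the annotated exons of SMAD2 sum to 36426 bases and those of SMAD4 to 19606. With the longest transcript of each gene, TGFB1 (53.1) and TGFBR2 (54.0) still led in control and DDX41 knockdown cells, respectively, and SMAD4 (6.58 and 4.29) was above SMAD2 (3.22 and 3.33) in both. SMAD3 (24.5 and 28.6) was then above SKIL (17.3 and 22.9) in both groups, TGFBR2 (35.8) was above TGFB2 (31.3) in control cells, and TGFB1 (32.0) was above TGFB2 (29.6) in DDX41 knockdown cells. The longest SMAD2 transcript has 34626 bases, close to the sum of its exons, so neither length tests the low place of SMAD2.

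**Figure D2:**
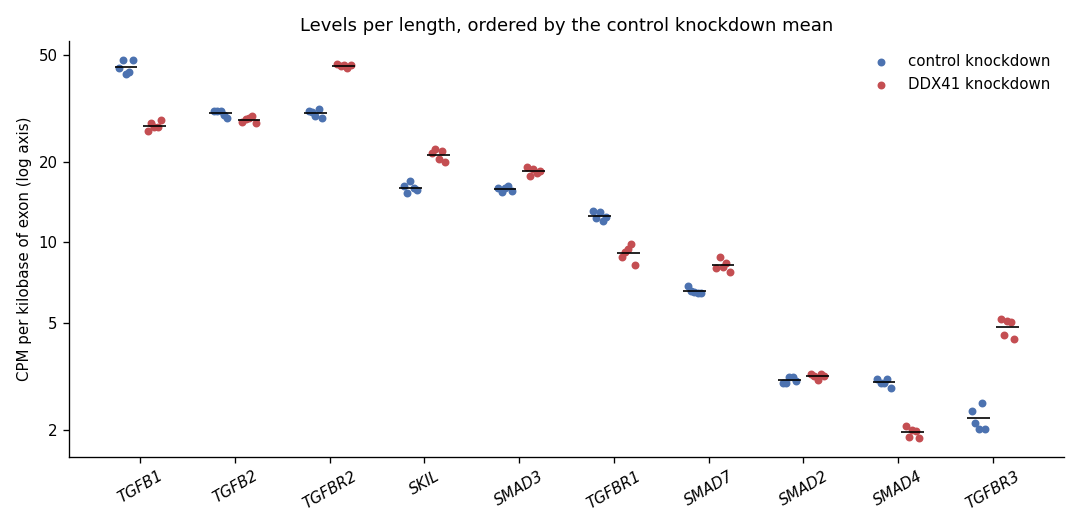
Level per exon length of each gene in every library, in CPM per kilobase on a log axis, ordered by the control mean (points, libraries; line, mean; blue, control knockdown; red, DDX41 knockdown). TGFB1 leads in control cells at 45.2 and TGFBR2 in DDX41 knockdown cells at 45.7 CPM per kilobase.

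Ratios of these levels within a library compare partners of a step, and they are given as a description. The ratio of TGFB1 to TGFB2 was 1.49 (1.37 to 1.64 over libraries) in control and 0.952 (0.909 to 1.03) in DDX41 knockdown cells. For the receptor kinases, TGFBR1 to TGFBR2 went from 0.416 (0.383 to 0.440) to 0.199 (0.178 to 0.220). SMAD2 to SMAD3 was 0.194 (0.188 to 0.198) in control and 0.172 (0.163 to 0.178) in DDX41 knockdown libraries. The inhibitors were set against SMAD4, the common partner of the receptor-activated SMADs. SMAD7 to SMAD4 was 2.19 (2.09 to 2.26) in control and 4.21 (3.90 to 4.72) in DDX41 knockdown cells. SKIL to SMAD4 was 5.34 (5.12 to 5.66) and 10.9 (10.3 to 11.9). The size of each ratio depends on the exon lengths used, whereas its fold between groups does not. With the longest transcript of each gene, both ratios to SMAD4 were smaller in control and in DDX41 knockdown cells. SMAD7 was then at 7.77 and 9.705, SKIL at 17.3 and 22.9 and SMAD4 at 6.58 and 4.29 CPM per kilobase.

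**Figure D3:**
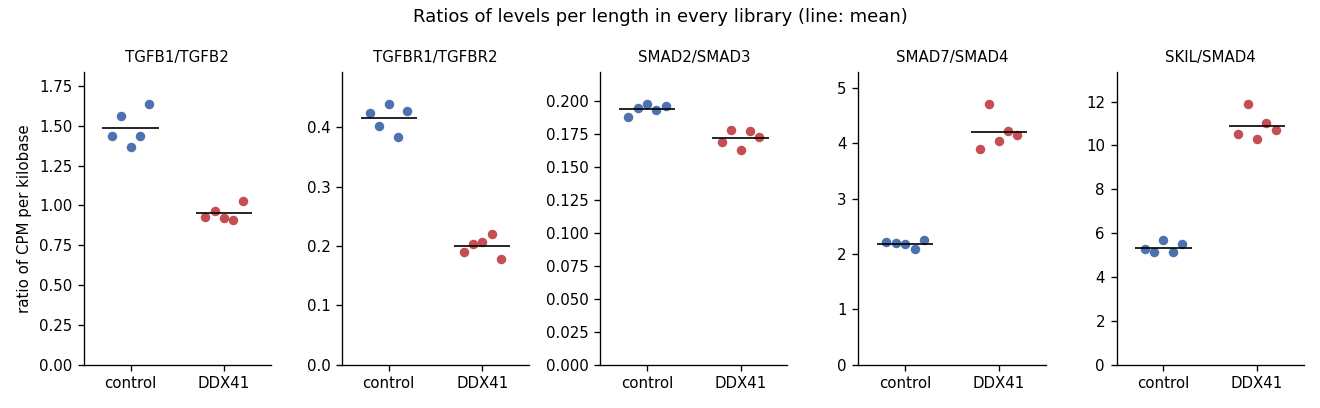
Ratio of the levels per kilobase of a pair of genes in every library (points; line, mean) for control and DDX41 knockdown cells. SMAD7 to SMAD4 lies between 2.09 and 2.26 in control and between 3.90 and 4.72 in DDX41 knockdown libraries.

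Patterns most like those of the genes with the largest rise and fall were described by Pearson correlation of log2 CPM over the 10 libraries. The genes closest to TGFBR3 were PTX3 (r = 0.9969), RASSF3 (r = 0.9967) and DDAH1 (r = 0.9965). Those closest to TGFB1 were PCOLCE (r = 0.9989), MDK (r = 0.9983) and EEF2 (r = 0.9980). All 10 libraries share the split into groups, and 1664 genes correlated with TGFBR3 and 2030 with TGFB1 at r above 0.95.

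Beyond the 10 genes, 94 further genes of the pathway and its known targets were listed by role, of which 83 were tested. These lists, too, were chosen with earlier results of these data known. Of these, 36 rose, 30 fell and 17 were not called, and the median log2 fold change was 0.03, beside -0.0014 over all tested genes. A call with an absolute log2 fold change over 0.5 was reached by 24 of them. Over all tested genes 30.3% were higher, 32.1% were lower and 25.5% passed the size rule, and the counts of each role below stand beside these shares.

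Genes for latent binding, processing and activation of the ligand numbered 13 tested of 14, with 7 higher, 4 lower and a median log2 fold change of 0.09. FURIN, the protease that cleaves the TGF-beta precursor, rose from 207 ± 10.1 to 307 ± 10.2 CPM (log2 fold change 0.57, adjusted p = 6.7e-16 with edgeR and Benjamini-Hochberg adjustment). LTBP3, a latent TGF-beta binding protein, rose from 64.6 ± 3.51 to 93.9 ± 5.84 CPM (0.54, adjusted p = 8.58e-12). The third ligand, TGFB3, fell like TGFB1, from 16.1 ± 0.449 to 11.3 ± 0.961 CPM (-0.51, adjusted p = 1.09e-08). BGN, a matrix proteoglycan that binds TGF-beta, fell from a low 1.71 ± 0.210 to 0.350 ± 0.105 CPM (-2.27, adjusted p = 6.62e-11).

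Of 8 further receptors and co-receptors, 6 were tested, with 2 higher, 3 lower and a median log2 fold change of -0.22. With DESeq2, run without the filter for low counts, 7 of them were tested and 1 was lower. With the replicate numbers as a block 2 were lower. ACVR2B, a type II activin receptor, rose from 44.1 ± 3.16 to 81.2 ± 5.42 CPM (log2 fold change 0.88, adjusted p = 6.59e-13 with edgeR and Benjamini-Hochberg adjustment). ACVR1B, a type I activin receptor that also acts through SMAD2 and SMAD3, fell from 55.2 ± 2.03 to 46.2 ± 1.45 CPM (-0.26, adjusted p = 3.55e-07). No difference between type I and type II receptors was tested. BAMBI, a pseudoreceptor that dampens signalling, fell from 11.7 ± 0.707 to 10.0 ± 0.244 CPM (-0.23, adjusted p = 0.0018), and with DESeq2 it did not pass the threshold (-0.22, adjusted p = 0.0101). ACVR2A, the other type II activin receptor, rose from 24.7 ± 0.808 to 27.3 ± 1.40 CPM (0.14, adjusted p = 0.0063). That call was lost with total counts (0.13, adjusted p = 0.0123), without control replicate 2 (0.13, adjusted p = 0.0211) or 4 (0.14, adjusted p = 0.0151), and without DDX41 knockdown replicate 1 (0.14, adjusted p = 0.0107), 2 (0.14, adjusted p = 0.0128) or 3 (0.12, adjusted p = 0.0231).

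Activin-type ligands and their antagonists had 7 tested genes of 11, with 3 higher, 3 lower and a median log2 fold change of 0.32. With DESeq2, run without the filter for low counts, 10 of them were tested, with a median of -0.10, 2 higher and 5 lower. INHBB, INHA, NODAL and LEFTY2, which that filter had left out, had means of 0.351 CPM or less in both groups. GDF11, a ligand that signals through SMAD2 and SMAD3, was at 118, 115, 124, 119 and 123 CPM in control libraries 1 to 5. It was at 42.0, 45.6, 42.7, 44.3 and 46.8 CPM in the DDX41 knockdown libraries. The fall of GDF11, by 1.44 on the log2 scale (adjusted p = 3.14e-24, edgeR with Benjamini-Hochberg adjustment), left a wide gap between the groups. INHBA, the activin A subunit, fell from 141 ± 7.14 to 105 ± 6.29 CPM (-0.42, adjusted p = 5.8e-10). FST (follistatin), which binds activins and blocks them, rose from 45.4 ± 0.771 to 61.5 ± 1.16 CPM (0.44, adjusted p = 1.06e-12). LEFTY1, an antagonist of nodal signalling, fell from 0.958 ± 0.208 to 0.121 ± 0.0373 CPM (-2.94, adjusted p = 8.05e-10), a level at which a library of the DDX41 knockdown held 2 to 4 reads.

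Of 9 SMAD anchors, partners and co-activators 8 were tested, with 5 higher and 3 lower, none with an absolute log2 fold change over 0.5 and with a median of 0.12. TGFBRAP1, a receptor-associated protein that also binds SMAD4, rose from 91.6 ± 2.08 to 114 ± 2.45 CPM (log2 fold change 0.32, adjusted p = 8.37e-11 with edgeR and Benjamini-Hochberg adjustment). ZFYVE9 (SARA), the anchor that brings SMAD2 and SMAD3 to the receptor, rose from 40.7 ± 1.96 to 50.9 ± 1.55 CPM (0.32, adjusted p = 1.53e-08). SP1, a transcription factor that works with the SMADs on many promoters, fell from 165 ± 7.85 to 133 ± 4.97 CPM (-0.31, adjusted p = 1.6e-09). DAB2, an endocytic adaptor that links receptors and SMADs, fell from 89.8 ± 2.57 to 73.7 ± 2.90 CPM (-0.28, adjusted p = 8.64e-09).

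Of 7 further inhibitors, all tested, 3 rose, 2 fell and 2 were not called, with a median log2 fold change of -0.07. TGIF2, a co-repressor of the SMADs, rose from 32.2 ± 1.44 to 42.9 ± 1.37 CPM (log2 fold change 0.41, adjusted p = 2.52e-10 with edgeR and Benjamini-Hochberg adjustment). Its relative TGIF1 rose from 91.6 ± 2.46 to 102 ± 3.00 CPM (0.15, adjusted p = 7.86e-05). PPM1A, a phosphatase of SMAD2 and SMAD3, rose from 142 ± 2.86 to 158 ± 3.67 CPM (0.15, adjusted p = 1.5e-05). FKBP1A, which keeps the type I receptor inactive, fell from 156 ± 4.27 to 129.7 ± 2.90 CPM (-0.26, adjusted p = 2.09e-09).

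Ubiquitin ligases and deubiquitinases of the pathway were all tested, and of these 9 genes 6 rose, 3 were not called and 0 fell, with a median log2 fold change of 0.13, beside 30.3% of all tested genes called higher and 32.1% called lower. At an unadjusted p-value under 0.05, 0 of them were lower with edgeR, DESeq2 or limma-voom, which were run on the same libraries. The share of all tested genes under that looser rule was not computed, so this count has no background beside it. NEDD4L, a ligase for phosphorylated SMAD2 and SMAD3, rose from 100.5 ± 2.75 to 158 ± 6.46 CPM (log2 fold change 0.65, adjusted p = 2.74e-17 with edgeR and Benjamini-Hochberg adjustment). SMURF2, the ligase that SMAD7 recruits to the receptor, rose from 126 ± 2.71 to 177 ± 1.64 CPM (0.49, adjusted p = 5.48e-16). The deubiquitinases UCHL5, from 13.9 ± 0.334 to 18.5 ± 0.841 CPM (0.41, adjusted p = 3.73e-08), and USP15, from 73.4 ± 1.57 to 84.6 ± 2.09 CPM (0.21, adjusted p = 8.93e-07), act against such ligases at the receptor and rose as well.

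SMADs of the BMP branch were lower in 3 of 4 cases, with 0 higher and a median log2 fold change of -0.43, beside 32.1% of all tested genes called lower and 30.3% called higher. None was higher at an unadjusted p-value under 0.05 with edgeR, DESeq2 or limma-voom, run on the same libraries. For that looser rule, too, no share of all tested genes was computed. SMAD5 fell from 98.0 ± 1.695 to 73.8 ± 3.41 CPM (log2 fold change -0.41, adjusted p = 3.78e-12 with edgeR and Benjamini-Hochberg adjustment). SMAD1 fell from 26.7 ± 1.30 to 19.4 ± 0.715 CPM (-0.46, adjusted p = 1.06e-09). SMAD9 fell from 7.55 ± 0.466 to 5.45 ± 0.456 CPM (-0.47, adjusted p = 5.98e-06). These 3 are the receptor-activated SMADs of BMP signals and, like SMAD2 and SMAD3, bind SMAD4. SMAD6, the inhibitory SMAD of that branch, was at 19.7 ± 1.495 and 18.7 ± 0.451 CPM and was not called (-0.07, adjusted p = 0.211). The SMAD6 log2 fold change was -0.04 without control replicate 3 (adjusted p = 0.568), within a range of -0.10 to -0.04 over the alternatives.

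**Figure D4:**
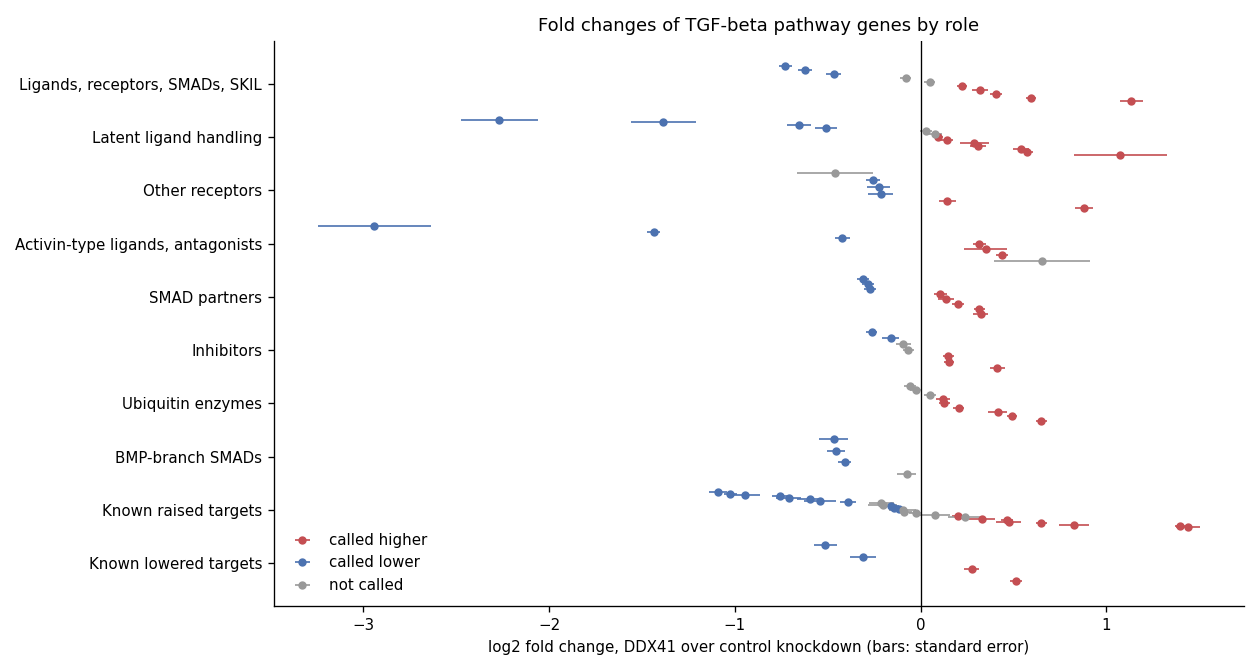
Log2 fold change of each tested gene, DDX41 over control knockdown, by role in the TGF-beta pathway (points, genes; bars, standard error; red, called higher; blue, called lower; grey, not called). The ubiquitin enzymes hold 6 genes called higher and 0 called lower, and the SMADs of the BMP branch hold 3 called lower and 0 called higher, beside 30.3% of all tested genes called higher and 32.1% called lower.

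Known targets of the pathway moved in both directions. Of 28 genes that TGF-beta is known to raise, 26 were tested, with 8 higher, 11 lower, 7 not called and a median log2 fold change of -0.11. CCN2 (CTGF), a matricellular protein, was at 549, 579, 583, 557 and 581.5 CPM in control libraries 1 to 5. It was at 1454, 1586, 1451, 1496 and 1527 CPM in the DDX41 knockdown libraries. Every DDX41 knockdown library exceeded every control library, and CCN2 rose with a log2 fold change of 1.40 (adjusted p = 3.19e-26, edgeR with Benjamini-Hochberg adjustment). COL4A1, a basement membrane collagen chain, rose from 466 ± 20.5 to 732 ± 23.1 CPM (0.65, adjusted p = 7.26e-18). TGM2, a transglutaminase that crosslinks matrix, fell from 151 ± 6.81 to 74.4 ± 3.28 CPM (-1.02, adjusted p = 7.07e-21). ADAM12, a membrane metalloprotease, fell from 40.2 ± 1.92 to 18.8 ± 1.13 CPM (-1.09, adjusted p = 2.57e-18). SNAI2, a transcription factor of epithelial-mesenchymal transition that was chosen after its values were seen, fell from 14.6 ± 1.496 to 7.57 ± 0.805 CPM (-0.94, adjusted p = 8.64e-12).

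Of 5 genes that TGF-beta is known to lower in many cells, 4 were tested, with 2 higher, 2 lower and a median log2 fold change of -0.02. MYC, a growth-promoting transcription factor, rose from 64.4 ± 2.25 to 91.9 ± 3.27 CPM (log2 fold change 0.51, adjusted p = 3.91e-14 with edgeR and Benjamini-Hochberg adjustment). CDC25A, a phosphatase that drives the cell cycle, rose from 51.6 ± 2.05 to 62.5 ± 3.60 CPM (0.28, adjusted p = 4.29e-07). ID2, an inhibitor of differentiation factors that BMP signals induce, fell from 11.8 ± 0.382 to 8.28 ± 0.375 CPM (-0.51, adjusted p = 2.1e-08). Its relative ID1 fell from 76.0 ± 9.04 to 61.4 ± 2.50 CPM (-0.31, adjusted p = 0.00225), a call that was lost without DDX41 knockdown replicate 2 (-0.31, adjusted p = 0.0104).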

How the data were processed

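Groups and replicate numbers of the 10 libraries were taken from the sample labels. The authors demultiplexed the single reads with bcl2fastq 2.19, mapped them to hg38 with STAR 2.7 and a Gencode annotation, and assigned them to genes with featureCounts 1.6 (Subread). Deposited are the resulting unnormalized counts, 1 table per library. How strand and multi-mapped reads were handled is not given in the sources used here. Names, positions and exon lengths came from GENCODE 44 on the same build, a later release than the authors used, so the lengths may differ from those of the exons counted. Of the 63299 genes in the tables, 56948 had a name there.

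In edgeR 4.0.16 under R 4.3.3, genes were filtered with filterByExpr on the groups, libraries were scaled by TMM and the groups were compared with glmQLFTest after a robust glmQLFit, and p-values were adjusted over all 16143 tested genes by Benjamini-Hochberg. Genes with an adjusted p-value under 0.01 were called. Standard errors were derived from the F statistic. The common biological coefficient of variation was 3.65%, which counting error equals at 752 reads and exceeds at fewer. No library repeated another, since the chi-square per degree of freedom was 1.76 to 5.67 in the 20 pairs within groups. Correlations and exact permutation tests used log2(CPM + 0.5) in Python 3.11.15 with scipy 1.17.1. Alternatives changed the scaling, the filter, the test (DESeq2 1.42.0, limma-voom 3.58.1), the threshold, the replicate block, the exon length and the libraries used. DESeq2 was run without filterByExpr, on all 32705 genes with at least 1 count. That alternative therefore changed the filter as well as the test. Promoters came from RefSeq.

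The genes named are the 10 members, DDX41, up to 4 tested genes of each pathway list with the smallest adjusted p-value, genes that share exon bases with a member and have counts, cell type markers and, for the members with the largest rise and fall, the 3 genes of most similar pattern. SNAI2 was chosen after its values were seen. The members and lists were chosen with earlier results of these data known. Protein sequences were not used here.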

Additional observations from a re-analysis of the deposited data

Results flagged for a closer look

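In 3 of the 96 groups of 5 libraries examined (the 10 genes, DDX41 and the named pathway genes in each condition), 1 library lay apart from the others by more than Dixon's critical value of 0.71 for the gap over the range, and chance alone marks about 1 in 20 groups. For SMAD7, control replicate 1 was at 27.0 CPM and the other control libraries were at 25.5 to 25.9 CPM, still below every DDX41 knockdown library. For the activin receptor ACVR2B, DDX41 knockdown replicate 4 was at 71.7 CPM and the others were at 81.9 to 84.7 CPM. For MYC, control replicate 2 was at 68.4 CPM and the others were at 63.2 to 63.8 CPM. Each of these genes was called in the same direction without the library concerned.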

How the results depend on the processing

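For the 10 genes, 185 of 190 log2 fold changes under the alternatives kept their direction and their side of the threshold. The other 5 were those of TGFB2, which passed it with total counts, with the filter at 1 CPM, without control replicate 5, without DDX41 knockdown replicate 4 and at an adjusted p-value under 0.05. The number of genes called higher was 5 and of those with an absolute log2 fold change over 0.5 was 4 under every alternative run, and 3 or 4 were called lower. For 59 other tested genes named, DDX41 aside, 1101 of 1115 kept both, 8 lost the call (ACVR2A, BAMBI and ID1) and 5 gained one (TGFB2-AS1 and PTPRC). The filter at 1 CPM gave no value for LEFTY1, CDH1, CDH5, PTPRC, TGFB2-AS1 and ENSG00000259347. The CDH1 log2 fold change, never called, ranged from -0.0554 without DDX41 knockdown replicate 3 to 0.1673 without DDX41 knockdown replicate 1. Over all tested genes, between 4641 and 5626 were called higher and between 4864 and 5794 lower. With DESeq2, run without the filter for low counts, 1 further receptor was lower (3 with edgeR), as were 5 activin-type ligands or antagonists (3 with edgeR). Of the activin-type genes, limma-voom gave 2 higher in place of 3. Of the known raised targets, 9 were higher with DESeq2 and with limma-voom in place of 8. With limma-voom 12 of these targets were lower in place of 11. The cause was not tested. Levels per kilobase moved with the longest transcript as length, by the construction of that alternative. The replicate numbers of the labels were also used in a paired fit. With this replicate block, 5 of the 10 genes were higher, 3 lower and 4 over 0.5, and 4790 genes were higher and 5097 lower in all, of which 4760 and 5069 were shared with the fit without it. Of the further receptors 2 were then lower in place of 3, of the activin-type genes 2 were higher in place of 3, of the SMAD partners 4 were higher in place of 5, and of the known raised targets 12 were lower in place of 11. DDX41 had a log2 fold change of -1.99. Deviations of same-numbered libraries correlated at -0.08 to 0.06, and 1 of 5 control libraries, replicate 4, correlated best with its own number.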
